A study of Mus musculus with 6 samples.

Results

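Vldlr, the very low density lipoprotein receptor gene, was examined together with the genes of cholesterol synthesis, sterol sensing, lipoprotein uptake and cholesterol efflux in LSK cells that lacked Oga. The list was fixed by gene symbol: 32 symbols were looked up in the table of loci, the locus with the largest length was taken where a symbol repeated, and 31 were found. Hmgcs1 was not matched and is not analysed here. All 31 passed the filter on low counts, out of 53445 loci in the table and 22032 that were tested. The list holds 4 lipoprotein receptors, 5 genes of sterol sensing, 6 enzymes of the mevalonate pathway, 11 enzymes from squalene to cholesterol, and 5 genes of efflux and of the LXR receptors. The 17 synthesis enzymes and Insig1 are called the 18 sterol-controlled genes below.

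RNA-Seq of poly(A) RNA was performed on Lin-Sca+Kit+ (LSK) bone marrow cells, the compartment that holds blood stem cells and multipotent progenitors. The female mice, 3 of each genotype, were OgaVav-Cre or wildtype, about 12 weeks old and of C57BL/6 background, and each gave 1 library. OgaVav-Cre mice were bred from a floxed allele of Oga (Oga fl/fl) and the Vav-iCre transgene, whose Vav promoter drives Cre throughout the blood lineage, so that the deletion is not limited to LSK cells. The labels do not say whether the wildtype mice carried the floxed allele without Cre. Oga encodes O-GlcNAcase, the enzyme that removes the sugar O-GlcNAc from proteins.

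Cholesterol synthesis is controlled by feedback. SCAP carries the membrane-bound SREBP transcription factors, encoded by Srebf1 and Srebf2, out of the endoplasmic reticulum when sterols are scarce, and the INSIG proteins hold SCAP back when sterols are plentiful, so that the enzymes of the pathway tend to be transcribed together. A second arm, the LXR nuclear receptors encoded by Nr1h2 and Nr1h3, senses oxysterols and turns on the efflux transporters Abca1 and Abcg1. VLDLR is a member of the low density lipoprotein receptor family, binds apolipoprotein E-containing particles and is also, with LRP8, a receptor for Reelin.

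Library totals were 25190298 to 27064389 reads in OgaVav-Cre and 19318056 to 21684561 reads in wildtype, so that 3 reads, the level taken as the floor, corresponded to 0.109 to 0.156 CPM, reads per 1000000 of the TMM-scaled library. Oga, listed under its older symbol Mgea5, had 104, 109 and 110 reads across the OgaVav-Cre libraries and 3164, 2970 and 2736 reads across the wildtype ones, 3.10% of the wildtype level. The LSK markers Kit, Cd34, Flt3 and Ly6a, which encodes Sca-1, had at least 1001 reads in every library. Macrophage markers were also present: 10 of 10 were detected in every library, and their summed level was 99.2, 93.9 and 301.8 CPM in OgaVav-Cre replicates 1, 2 and 3 and 185.2, 125.2 and 469.8 CPM in wildtype replicates 1, 2 and 3. Replicate 3 of each genotype therefore had the highest macrophage marker sum, and for the genes that these 2 libraries moved most, values without both are given beside the values with all libraries. Plasma cell markers were detected too: the 7 genes, Ighm and Igj above all, summed to 87252, 32956 and 9037 CPM in OgaVav-Cre replicates 1, 2 and 3 and to 14922, 40660 and 9392 CPM in wildtype replicates 1, 2 and 3. All 7 had log2 fold changes above 0 (median 0.68), with none called and none below an unadjusted p of 0.05. Erythroid markers summed to 320.3 to 2496 CPM across the OgaVav-Cre libraries and 524.6 to 813.0 CPM across the wildtype ones. Granulocyte markers summed to 539.6 to 2231 and 1035 to 1299.9 CPM, and the 8 LSK markers to 965.7 to 1838 and 1198 to 1874 CPM. The highest erythroid and granulocyte sums and the lowest LSK sum of all libraries were in OgaVav-Cre replicate 3. Wildtype replicate 3 likewise had the highest erythroid and granulocyte sums of its genotype, at 813.0 and 1299.9 CPM. The plasma cell sum was lowest in replicate 3 of each genotype. The part of these cells in the results was not tested.

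Vldlr had the lowest log2 fold change of the 31 genes, at -1.47, and the 18 sterol-controlled genes did not move down with it. A locus was called changed where its adjusted p was below 0.05 and its log2 fold change beyond 1 in either direction (edgeR quasi-likelihood test, adjusted over all tested loci). None of the 31 genes was called, beside 0.0318% of all tested loci. At an unadjusted p below 0.05 there were 2 of the 31 genes, Vldlr lower and Srebf1 higher, beside 10.6% of all tested loci (6.27% lower and 4.38% higher), which is no excess over the background. Of the 18 sterol-controlled genes none was below an unadjusted p of 0.05. With TMM scaling the OgaVav-Cre and wildtype libraries overlapped for every one of these 18 genes. Their median log2 fold change was 0.22, against 0.0041 for all loci tested.

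**Figure D1:**
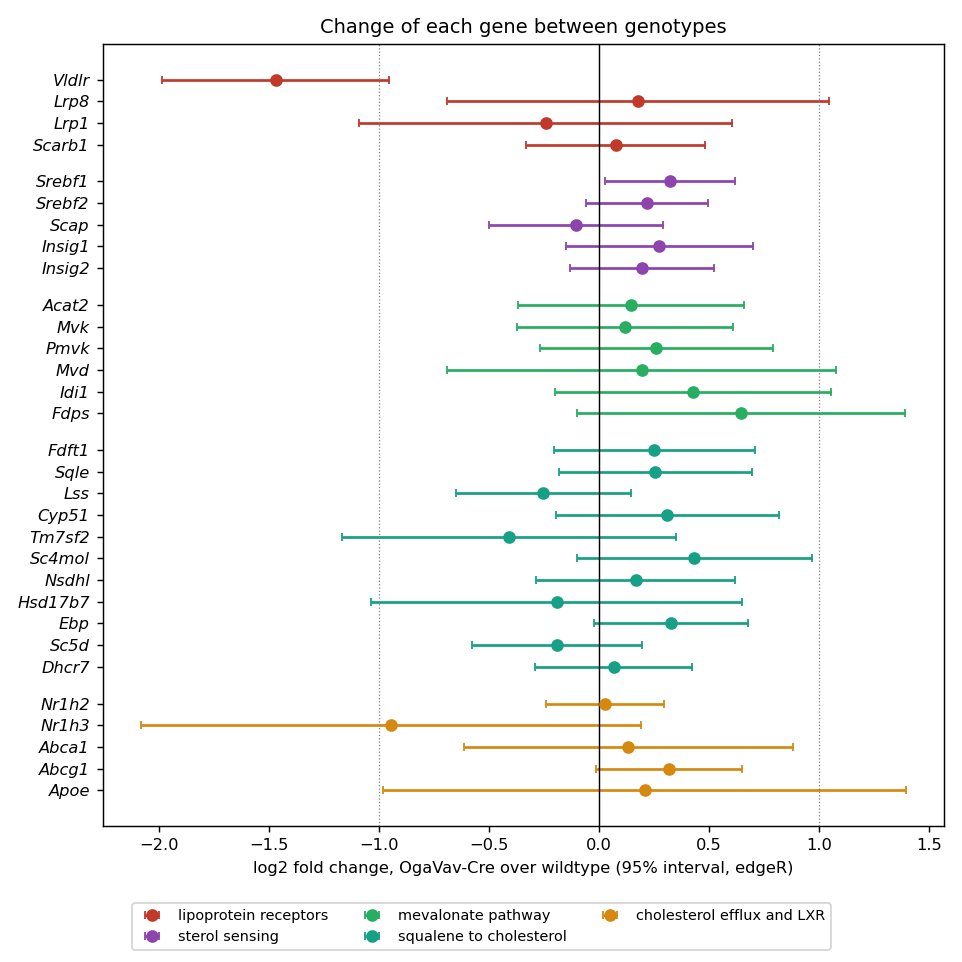
Log2 fold change of OgaVav-Cre over wildtype (x axis) for the 31 genes (y axis), coloured by role, with 95% intervals from edgeR and dotted lines at -1 and 1. Vldlr has the lowest estimate, -1.47, and the intervals of the 18 sterol-controlled genes all include 0.

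Vldlr spans chr19:27290974-27328721 of mm9 on the plus strand and has 18 exons in the table. It had 871, 902 and 680 reads across the OgaVav-Cre libraries and 1848, 2211 and 1732 reads across the wildtype ones, although the OgaVav-Cre libraries were the deeper ones. Scaled, these were 38.6, 35.7 and 24.8 CPM against 86.6, 114.7 and 73.3 CPM, and the highest OgaVav-Cre library lay below the lowest wildtype library. The means were 33.0 ± 7.28 CPM (SD, n = 3) and 91.5 ± 21.1 CPM (SD, n = 3). Expression in OgaVav-Cre cells was 36.1% of wildtype, a log2 fold change of -1.47 (standard error 0.222, 95% interval -1.99 to -0.95). The adjusted p was 0.210 in edgeR, so the difference was not called. It was called by DESeq2 (log2 fold change -1.46, adjusted p = 6.74e-07), which called 0.493% of the loci it tested, and by edgeR with no filter on low counts (log2 fold change -1.47, adjusted p = 0.0246), where 0.0575% of loci were called. Leaving out each library in turn gave log2 fold changes from -1.61 to -1.27. Vldlr belongs to the genes that the study listed as deregulated in these same libraries, so its lower level here is not independent evidence.

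Vldlr and Oga lie on the same chromosome, 18.5 Mb apart. Within 500 kb of Vldlr the table lists 14 other loci, of which 5 were tested. Smarca2, which encodes an ATPase of the SWI/SNF chromatin remodelling complex, had a log2 fold change of -0.15 (adjusted p = 0.781, edgeR), and D19Bwg1357e one of 0.0035 (adjusted p = 0.994, edgeR). C030016D13Rik, 176 kb downstream, had 17, 5 and 28 reads across the OgaVav-Cre libraries and 42, 46 and 46 reads across the wildtype ones, a log2 fold change of -1.66 (adjusted p = 0.415, edgeR) with no overlap between the genotypes. The other tested neighbours, 4931403E22Rik and AK137952, had log2 fold changes of -0.25 and 0.20 (adjusted p = 0.896 and 0.949, edgeR). No listed locus overlapped Vldlr itself, so its reads were not shared with a neighbour.

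The promoters of Vldlr and of 3 sterol-controlled genes, a sensor (Insig1), an early enzyme (Idi1) and a late enzyme (Sc4mol), are shown because the question is whether Vldlr moved with the genes that SREBP proteins control. Each runs from 250 bases before to 50 bases after a RefSeq transcription start in GRCm38.p6, a later build than the mm9 of the counts, and is read 5′ to 3′ on the strand of the gene. Vldlr has an upstream start (chr19:27216234-27216533, plus strand) and a downstream start (chr19:27216770-27217069, plus strand). Insig1 lies at chr5:28071162-28071461 (plus strand), Idi1 at chr13:8885356-8885655 (plus strand) and Sc4mol, named Msmo1 in RefSeq, at chr8:64733529-64733828 (minus strand). Capitals mark the CCAAT box on either strand, CCAAT or its reverse complement ATTGG, the site bound by NF-Y, a factor known to act beside SREBP at sterol-controlled promoters.
Vldlr, upstream start: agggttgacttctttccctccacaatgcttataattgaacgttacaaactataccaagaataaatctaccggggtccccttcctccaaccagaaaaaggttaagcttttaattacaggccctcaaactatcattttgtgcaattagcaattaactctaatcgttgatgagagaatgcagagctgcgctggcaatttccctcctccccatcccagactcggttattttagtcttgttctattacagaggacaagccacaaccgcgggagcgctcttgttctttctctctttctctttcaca
Vldlr, downstream start: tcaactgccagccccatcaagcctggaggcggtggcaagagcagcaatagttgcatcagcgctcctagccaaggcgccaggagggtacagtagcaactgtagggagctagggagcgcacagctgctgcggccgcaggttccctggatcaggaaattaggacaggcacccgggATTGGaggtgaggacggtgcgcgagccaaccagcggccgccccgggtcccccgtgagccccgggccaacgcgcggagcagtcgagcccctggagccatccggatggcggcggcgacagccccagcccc
Insig1: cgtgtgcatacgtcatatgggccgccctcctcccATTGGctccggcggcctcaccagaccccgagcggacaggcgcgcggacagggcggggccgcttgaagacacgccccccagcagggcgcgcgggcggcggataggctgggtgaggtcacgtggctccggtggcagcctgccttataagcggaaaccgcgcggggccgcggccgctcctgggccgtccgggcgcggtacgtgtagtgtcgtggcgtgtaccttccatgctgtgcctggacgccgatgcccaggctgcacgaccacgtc
Idi1: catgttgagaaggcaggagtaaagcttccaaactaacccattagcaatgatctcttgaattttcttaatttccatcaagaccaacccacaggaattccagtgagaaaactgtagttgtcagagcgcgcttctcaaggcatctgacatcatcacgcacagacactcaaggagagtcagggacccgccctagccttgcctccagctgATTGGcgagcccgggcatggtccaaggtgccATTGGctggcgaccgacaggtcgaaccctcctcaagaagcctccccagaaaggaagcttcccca
Sc4mol: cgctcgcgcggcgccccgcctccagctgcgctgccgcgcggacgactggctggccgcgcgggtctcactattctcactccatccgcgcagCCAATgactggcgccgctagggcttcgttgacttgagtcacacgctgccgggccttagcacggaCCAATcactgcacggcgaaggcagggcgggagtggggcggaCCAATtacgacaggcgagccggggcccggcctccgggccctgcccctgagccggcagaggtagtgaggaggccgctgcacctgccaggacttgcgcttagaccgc

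The upstream Vldlr promoter held no CCAAT box and the downstream one held 1, while Insig1 held 1, Idi1 held 2 and Sc4mol held 3. Promoters were matched for 26 of the 31 genes, with 40 starts in all, and Scarb1, Fdps, Fdft1, Sqle and Abcg1 had no entry. Of the 15 sterol-controlled genes with an entry, 14 held at least 1 CCAAT box, Acat2 being the exception, against 41.1% of the 27025 genes in the RefSeq table (37.4% of its 32851 promoters). Mvk held 5 boxes and Nsdhl held 4. Outside the 15 genes, Vldlr, Srebf1, Srebf2 and Insig2 also held at least 1. None of the genes of efflux and the LXR receptors with an entry, Nr1h2, Nr1h3, Abca1 and Apoe, held one. The GC box GGGCGG was found in 14 of the same 15 genes (Pmvk lacked it) and in 21 of the 26, against 38.2% of all genes. Outside the 15 it was in Vldlr, Lrp1, Srebf1, Srebf2, Scap, Insig2 and Abca1. The sterol regulatory element TCACNCCAC was found in none of the 26 genes and in 1.44% of all genes, and its overlapping core CACCCCAC was found in Acat2 alone, against 3.30% of all genes. The E-box CACGTG was found in 4 of the 15 genes (Insig1, Hsd17b7, Sc5d and Dhcr7), against 8.09% of all genes, and the related ATCACNTG in 1 of them, Pmvk, against 3.71%. Outside the 15, CACGTG was in Scap and Abca1 and ATCACNTG in Lrp8. All 6 motifs were searched on both strands. A match is a stretch of letters and not a bound site, and a missing match says only that these letters are not in the window.

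Among the lipoprotein receptors, levels per length were compared in the deposited RPKM. In wildtype cells the order was Vldlr at 6.13 ± 1.25 RPKM (SD, n = 3), Scarb1 at 4.73 ± 1.12 RPKM (SD, n = 3), Lrp8 at 3.31 ± 0.630 RPKM (SD, n = 3) and Lrp1 at 1.34 ± 0.641 RPKM (SD, n = 3). In OgaVav-Cre cells Scarb1 stood at 4.75 ± 0.558 RPKM (SD, n = 3) and Lrp8 at 3.61 ± 2.30 RPKM (SD, n = 3), above Vldlr at 2.11 ± 0.393 RPKM (SD, n = 3) and Lrp1 at 1.08 ± 0.437 RPKM (SD, n = 3). In wildtype cells the libraries of Vldlr and Scarb1 overlapped, from 5.05 to 7.50 and from 3.44 to 5.45 RPKM, so their order is not resolved beyond the spread. In OgaVav-Cre replicates 1, 2 and 3 Lrp8 had 2.13, 2.44 and 6.27 RPKM and Vldlr 2.33, 2.34 and 1.66 RPKM. The order of Lrp8 and Vldlr there is not resolved either. The ratio of Vldlr to Lrp8 was 1.49, 2.82 and 1.51 in the wildtype libraries and 1.09, 0.959 and 0.264 in the OgaVav-Cre libraries. It restates the lower level of Vldlr and is no further evidence. The lowest ratio, in OgaVav-Cre replicate 3, came with the highest Lrp8, 6.27 RPKM.

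Lrp8, the other Reelin receptor of the family, had 28.1, 29.6 and 74.6 CPM in OgaVav-Cre replicates 1, 2 and 3 and 46.1, 32.3 and 38.7 CPM in wildtype libraries. OgaVav-Cre replicate 3 was the highest library and the other two were the lowest, so the log2 fold change of 0.18 (adjusted p = 0.884, edgeR) turned to -0.44 without that replicate and to -0.45 without replicate 3 of both genotypes. On the RPKM scale with a pseudocount of 0.1 it was -0.029. Lrp1, a large endocytic receptor that is abundant in macrophages, had 19.2, 16.3 and 31.9 CPM across the OgaVav-Cre libraries and 23.0, 16.7 and 40.0 CPM across the wildtype ones, and replicate 3 was the highest library of each genotype. Its log2 fold change was -0.24 (adjusted p = 0.826, edgeR), and 0.18 without wildtype replicate 3. Replicate 3 was also the library with the highest macrophage, erythroid and granulocyte marker sums in each genotype. The part of RNA from these cells in the level of Lrp1 was not tested. In bulk RNA, fewer cells of a type and less RNA per cell cannot be told apart. Scarb1, the high density lipoprotein receptor, had 43.8, 50.1 and 48.5 CPM across the OgaVav-Cre libraries and 51.9, 33.9 and 49.5 CPM across the wildtype ones, a log2 fold change of 0.07 (95% interval -0.33 to 0.48) that became -0.048 when libraries were scaled by their totals alone.

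**Figure D2:**
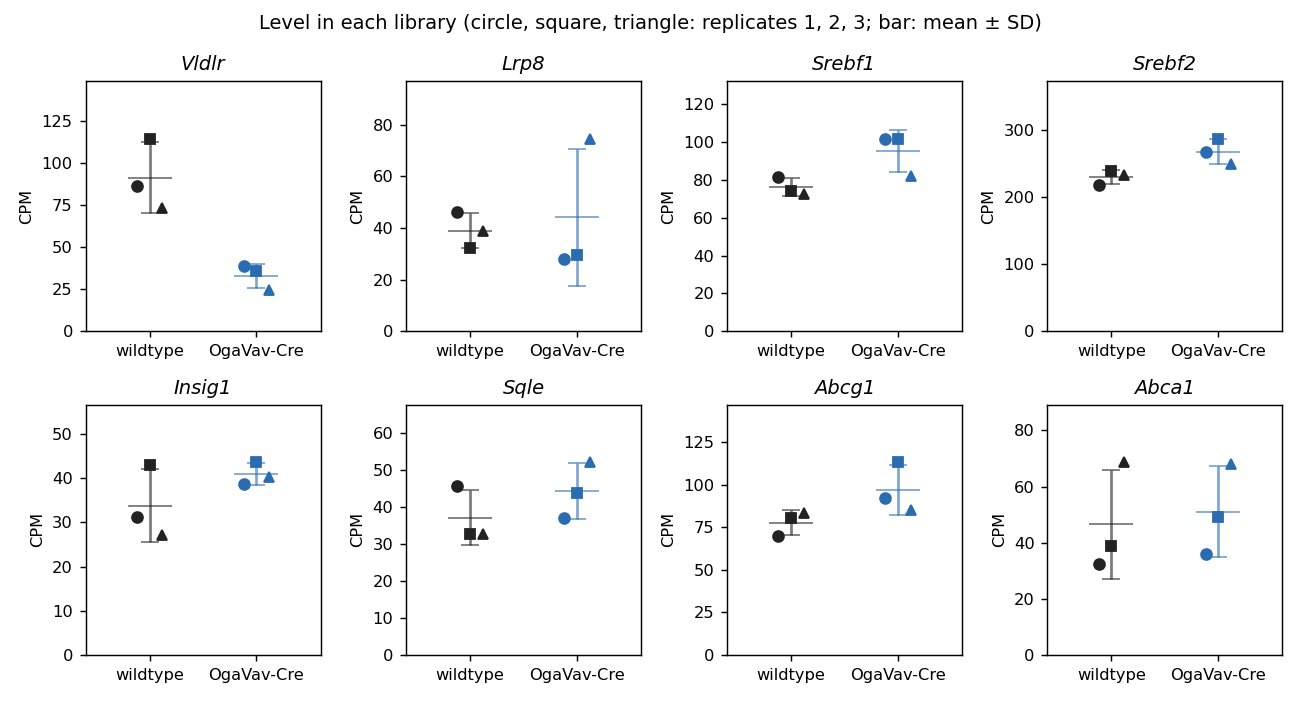
CPM (y axis, from 0) of 8 genes in each library by genotype (x axis), with markers for replicates 1, 2 and 3 and bars for the mean ± SD (n = 3). The genotypes separate for Vldlr (lower in OgaVav-Cre) and, narrowly, for Srebf1, Srebf2 and Abcg1 (higher), and overlap for Lrp8, Insig1, Sqle and Abca1.

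The sterol sensing genes were all well detected. Srebf2, which encodes the SREBP that mainly drives cholesterol genes, had the highest wildtype mean of the 31 genes per length, at 29.4 ± 1.26 RPKM (SD, n = 3). Apoe followed at 27.9 ± 21.1 RPKM (SD, n = 3) and exceeded Srebf2 in replicate 3 of each genotype, so the order of these 2 genes is not resolved beyond the spread. Srebf2 had 267.4, 287.4 and 250.2 CPM across the OgaVav-Cre libraries and 218.8, 239.6 and 233.6 CPM across the wildtype ones, all OgaVav-Cre libraries above all wildtype libraries. Its log2 fold change was 0.22 (95% interval -0.06 to 0.50, adjusted p = 0.543, edgeR). Srebf1, whose products drive fatty acid genes above all, had 101.9, 101.7 and 82.3 CPM across the OgaVav-Cre libraries and 81.6, 74.0 and 72.8 CPM across the wildtype ones. These sets did not overlap, though the closest libraries, at 82.3 and 81.6 CPM, nearly met. The log2 fold change of Srebf1 was 0.32 (standard error 0.127, 95% interval 0.03 to 0.62), with an unadjusted p of 0.0362 and an adjusted p of 0.447 (edgeR). Insig2, the INSIG gene that is less responsive to SREBP, had 19.3, 17.5 and 18.5 CPM against 15.1, 17.1 and 16.03 CPM in wildtype, again without overlap, and a log2 fold change of 0.20 (adjusted p = 0.623, edgeR).

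Insig1, itself a classical SREBP target, had 38.8, 43.6 and 40.3 CPM across the OgaVav-Cre libraries and 31.3, 43.0 and 27.2 CPM across the wildtype ones. Wildtype replicate 2 lay among the OgaVav-Cre libraries, and the log2 fold change was 0.27 (95% interval -0.15 to 0.70, adjusted p = 0.599, edgeR). Scap had 77.8, 76.8 and 104.3 CPM across the OgaVav-Cre libraries and 105.2, 78.0 and 95.3 CPM across the wildtype ones, overlapping fully, and a log2 fold change of -0.10 (95% interval -0.50 to 0.29). Over all 31 genes, libraries did not overlap for 1 that was lower, Vldlr, and for 4 that were higher, Srebf1, Srebf2, Insig2 and Abcg1. Among all tested loci 17.5% did not overlap, 9.97% lower and 7.5% higher. The 4 higher genes depended on the scaling: none of them was free of overlap with library totals alone and only Srebf2 and Insig2 were on the RPKM scale. With RLE size factors these 4 genes and Ebp were higher without overlap. Vldlr was lower without overlap under each scaling.

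The mevalonate pathway builds isoprene units from acetyl-CoA and joins them to farnesyl pyrophosphate. All 6 measured enzymes had log2 fold changes above 0, from 0.12 to 0.64, and none was below an unadjusted p of 0.05. The largest was that of Fdps, the synthase of farnesyl pyrophosphate, with 190, 216 and 354 reads across the OgaVav-Cre libraries and 187, 121 and 97 reads across the wildtype ones. On the CPM scale these were 8.43, 8.55 and 12.9 against 8.76, 6.28 and 4.10, so wildtype replicate 1 lay among the OgaVav-Cre libraries. The log2 fold change of Fdps was 0.64 (standard error 0.321, 95% interval -0.10 to 1.39, adjusted p = 0.513, edgeR). Idi1, the isopentenyl-diphosphate isomerase and the most abundant enzyme of the pathway at 15.7 ± 5.31 RPKM (SD, n = 3) in wildtype, had 51.6, 70.9 and 85.4 CPM against 70.8, 47.5 and 36.5 CPM, a log2 fold change of 0.43 (95% interval -0.20 to 1.05). Wildtype replicate 1 was again level with OgaVav-Cre.

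Mvk and Pmvk, the kinases that phosphorylate mevalonate in turn, differed little. Mvk had 5.19, 5.18 and 5.44 CPM across the OgaVav-Cre libraries and 5.30, 4.93 and 4.36 CPM across the wildtype ones (log2 fold change 0.12), and Pmvk had 6.61, 9.46 and 10.7 CPM against 7.50, 7.31 and 7.57 CPM (log2 fold change 0.26). Mvd, the decarboxylase that follows them, had 3.41, 2.89 and 7.26 CPM across the OgaVav-Cre libraries and 4.55, 3.53 and 3.81 CPM across the wildtype ones. Only OgaVav-Cre replicate 3 was high, and the log2 fold change of 0.19 became -0.33 without it. Acat2, a thiolase that makes acetoacetyl-CoA for the pathway, had 11.3, 15.8 and 12.6 CPM against 14.5, 11.9 and 9.48 CPM (log2 fold change 0.15, 95% interval -0.37 to 0.66).

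The later enzymes turn farnesyl pyrophosphate into squalene and then into cholesterol. Of 11 genes, 7 had log2 fold changes above 0 and 4 below, from -0.41 to 0.43, and none was below an unadjusted p of 0.05. Sqle, squalene epoxidase and a rate-controlling step, had 36.9, 43.7 and 51.9 CPM across the OgaVav-Cre libraries and 45.6, 32.7 and 32.7 CPM across the wildtype ones, a log2 fold change of 0.26 (95% interval -0.18 to 0.69, adjusted p = 0.633, edgeR). Cyp51, lanosterol demethylase, had 32.9, 40.2 and 50.3 CPM against 39.2, 35.5 and 25.0 CPM, a log2 fold change of 0.31. In both genes OgaVav-Cre replicate 3 was the highest library and the other OgaVav-Cre libraries lay within or near the wildtype range. Sc4mol, the methylsterol monooxygenase, had 25.5, 24.9 and 35.8 CPM across the OgaVav-Cre libraries and 21.3, 26.5 and 15.9 CPM across the wildtype ones, a log2 fold change of 0.43 (95% interval -0.10 to 0.97, adjusted p = 0.533, edgeR).

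Ebp, the sterol isomerase, was the closest to separating, with 31.1, 29.4 and 26.8 CPM across the OgaVav-Cre libraries and 26.9, 21.7 and 21.2 CPM across the wildtype ones. The lowest OgaVav-Cre library and the highest wildtype library met, at 26.82 and 26.85 CPM, and with RLE size factors the genotypes did not overlap. The log2 fold change was 0.33 (95% interval -0.02 to 0.68, adjusted p = 0.492, edgeR). Fdft1, squalene synthase, Nsdhl, a sterol dehydrogenase, and Dhcr7, which catalyses a last step to cholesterol, had log2 fold changes of 0.25, 0.17 and 0.07. That of Dhcr7 turned to -0.044 with library totals alone. The 4 genes on the lower side were Tm7sf2, a sterol reductase (-0.41), Lss, lanosterol synthase (-0.25), Hsd17b7, a sterol ketoreductase (-0.19), and Sc5d, a sterol desaturase (-0.19). Tm7sf2 had 73, 73 and 135 reads across the OgaVav-Cre libraries and 75, 122 and 115 reads across the wildtype ones. Hsd17b7 had 5.54, 6.01 and 13.5 CPM across the OgaVav-Cre libraries and 10.6, 10.4 and 7.74 CPM across the wildtype ones, so that its OgaVav-Cre libraries lay on both sides of the wildtype range.

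**Figure D3:**
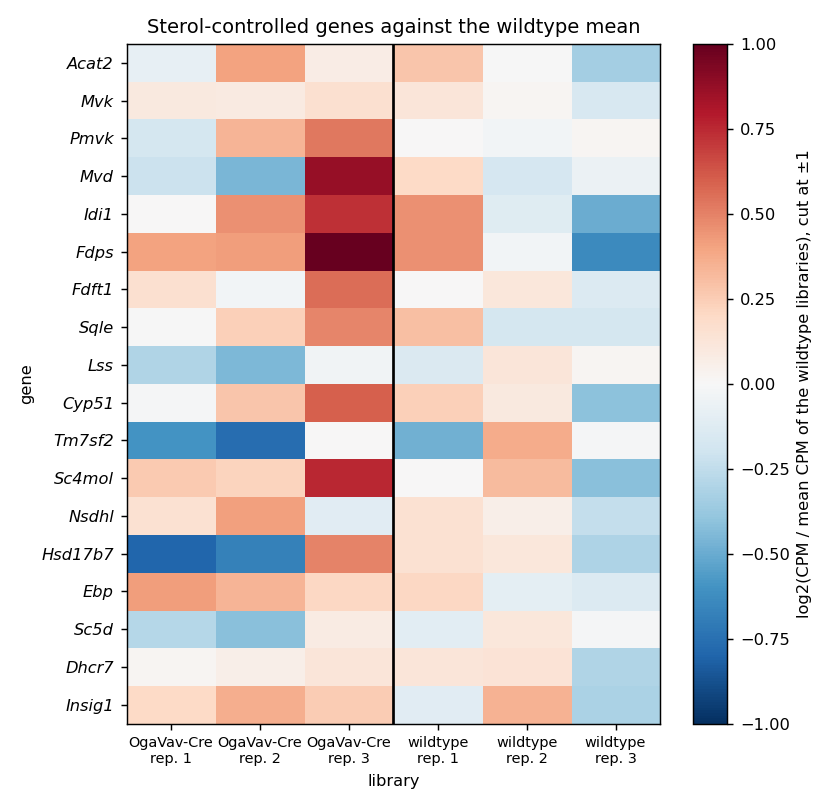
Log2 ratio of CPM to the mean of the 3 wildtype libraries (colour, cut at ±1) for the 18 sterol-controlled genes (rows) in the 6 libraries (columns, OgaVav-Cre left of the line). OgaVav-Cre replicate 3 holds the highest level of 10 genes and wildtype replicate 3 the lowest of 11, while the other 4 libraries are mixed.

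The small upward shift of the sterol-controlled genes was larger with replicate 3 of each genotype than without it. Of the 18 genes, 14 had log2 fold changes above 0 and 4 below, and adjusted p ranged from 0.492 to 0.896 (edgeR). Their summed level was 360.8, 402.4 and 472.6 CPM in OgaVav-Cre replicates 1, 2 and 3 and 395.9, 371.8 and 296.7 CPM in wildtype replicates 1, 2 and 3. OgaVav-Cre replicate 3 was the highest library for 10 of the 18 genes and wildtype replicate 3 the lowest for 11 of the 18. OgaVav-Cre replicate 3 also had the highest erythroid and granulocyte marker sums and the lowest LSK marker sum of all libraries. Both replicate 3 libraries had the highest macrophage, erythroid and granulocyte marker sums and the lowest plasma cell marker sum of their genotype. The part of these cells was not tested. Without both, the median log2 fold change was 0.027, against 0.22 with all libraries. Fdps then stood at 0.17, Idi1 at 0.049, Sc4mol at 0.072, Sqle at 0.040 and Cyp51 at -0.031. Hsd17b7 stood at -0.86, against -0.19 with all libraries, Tm7sf2 at -0.68, against -0.41, and Mvd at -0.36, against 0.19. This comparison was added after the data were seen, and since it leaves out the highest OgaVav-Cre sum and the lowest wildtype sum, the difference shrinks by construction. With each single library left out in turn the median lay between 0.117 and 0.289. Proliferation markers, summed over 10 genes, stood at 1664, 1744 and 1821 CPM across the OgaVav-Cre libraries and 2556, 1039 and 1279 CPM across the wildtype ones. Of these 10 genes, 8 had log2 fold changes above 0, with a median of 0.22 and none called. Wildtype replicate 1 was the highest wildtype library for both the proliferation markers and the sterol-controlled genes, and the part of proliferation in the sterol-controlled genes was not tested.

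The scaling moved the median of all loci to -0.11 when only library totals were used, and the sterol-controlled median was then 0.12. Relative to all loci the sterol-controlled median was thus 0.22 higher with TMM, 0.23 with library totals, 0.22 with RLE size factors and 0.19 on the RPKM scale, with 14, 13, 14 and 14 of the 18 genes above 0. The intervals show what was detectable. None of the 18 excluded 0, and 16 of the 18 lay wholly above a log2 fold change of -1, the exceptions being Tm7sf2 (-1.17 to 0.35) and Hsd17b7 (-1.04 to 0.65). The lowest bound of any, -1.17, lay above the estimate for Vldlr, -1.47. However, the interval of Vldlr, -1.99 to -0.95, overlapped those of Tm7sf2 and Hsd17b7. Upward, 15 of the 18 intervals lay below 1, and Fdps, Mvd and Idi1 reached past it. The median coefficient of variation of the 18 genes was 19.8% among OgaVav-Cre and 16.5% among wildtype libraries.

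**Figure D4:**
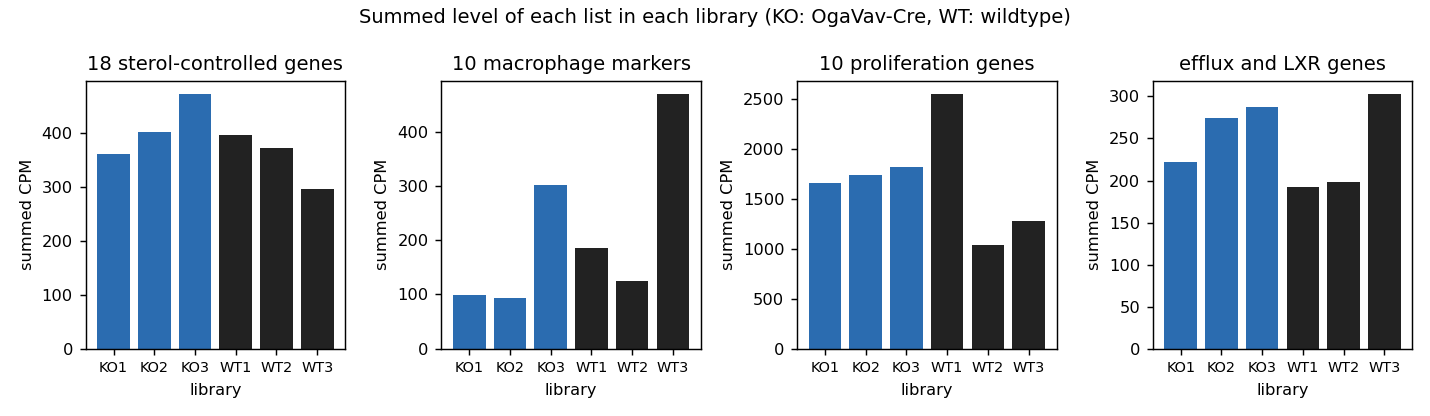
Summed CPM (y axis, from 0) of 4 gene lists in each library (x axis; KO, OgaVav-Cre; WT, wildtype). The sterol-controlled sum runs from 296.7 CPM in WT3 to 472.6 CPM in KO3, the macrophage sum is highest in WT3 and KO3, the proliferation sum is highest in WT1, and the sum over the 5 genes of efflux and the LXR receptors is highest in WT3 and KO3.

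The efflux arm showed no called change either. Abcg1, a transporter that passes cholesterol to high density lipoprotein and restrains progenitor expansion, had 92.2, 112.9 and 85.1 CPM across the OgaVav-Cre libraries and 69.6, 80.1 and 83.2 CPM across the wildtype ones. All OgaVav-Cre libraries lay above all wildtype libraries, and the log2 fold change was 0.32 (95% interval -0.01 to 0.65, adjusted p = 0.487, edgeR). Abca1, its partner transporter, had 36.1, 49.1 and 68.0 CPM across the OgaVav-Cre libraries and 32.3, 38.8 and 68.6 CPM across the wildtype ones, and Apoe, which encodes the apolipoprotein that VLDLR binds, had 28.6, 50.9 and 69.1 CPM against 29.5, 20.3 and 78.9 CPM. For both genes replicate 3 was the highest library of each genotype. Their log2 fold changes were 0.13 and 0.21 (adjusted p = 0.901 and 0.903, edgeR) and became -0.13 and -0.11 without OgaVav-Cre replicate 3. With each library left out in turn, Abca1 ranged from -0.13 to 0.52 and Apoe from -0.13 to 0.99, the highest of each being without wildtype replicate 3, where Apoe was below an unadjusted p of 0.05 beside 5.39% of loci. Without replicate 3 of both genotypes they stood at 0.26 and 0.67.

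Nr1h3, the LXR gene that is typical of macrophages, was the least detected of the 31 genes, with 25, 24 and 57 reads across the OgaVav-Cre libraries and 49, 29 and 99 reads across the wildtype ones. Its log2 fold change was -0.95 (standard error 0.490, 95% interval -2.08 to 0.19, adjusted p = 0.525, edgeR), and the libraries overlapped. With each library left out in turn it ranged from -1.37, without OgaVav-Cre replicate 3, to -0.46, without wildtype replicate 3, and it was -0.89 without both. The macrophage, erythroid and granulocyte marker sums had the same order of libraries within wildtype, replicate 3 above 1 above 2. All 10 macrophage markers had log2 fold changes below 0 (median -0.61), with none called and none below an unadjusted p of 0.05. The part of RNA from any of these cells in the levels of Nr1h3, Apoe and Abca1 was not tested. Nr1h2, the LXR gene that most cells express, had 64.6, 60.6 and 62.8 CPM across the OgaVav-Cre libraries and 59.1, 57.1 and 68.4 CPM across the wildtype ones. Its log2 fold change of 0.03 (95% interval -0.24 to 0.29) was the smallest of all 31 and lay below 0 with library totals (-0.097) and with RPKM (-0.037).

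Of 45 further genes in 4 related lists, 42 were tested and none was called. Below an unadjusted p of 0.05 there were 2, both lower, again no excess over the 6.27% of all loci. Gpam, which starts glycerolipid synthesis, had 36.4, 38.5 and 46.1 CPM across the OgaVav-Cre libraries and 81.3, 38.9 and 63.0 CPM across the wildtype ones (log2 fold change -0.60, adjusted p = 0.468, edgeR). Ggps1, which makes geranylgeranyl pyrophosphate from the mevalonate pathway, had 34.3, 37.8 and 43.0 CPM against 45.5, 53.2 and 48.4 CPM, without overlap (log2 fold change -0.35, adjusted p = 0.445, edgeR). Fasn, the fatty acid synthase and a main target of Srebf1 products, had 183.2, 176.5 and 151.1 CPM against 167.1, 118.1 and 132.5 CPM (log2 fold change 0.29, 95% interval -0.08 to 0.66). Over the 13 genes of fatty acid synthesis 11 lay above 0, with a median of 0.14. Npc2, a lysosomal cholesterol carrier, had a log2 fold change of 0.31 (adjusted p = 0.492, edgeR), and the 13 tested genes of the other sterol list had a median of 0.06. Among the 42 genes, libraries did not overlap for 3 that were lower (Ggps1, Lrp6 and Dab2) and 2 that were higher (Npc2 and Lrp10). Among all tested loci these shares were 9.97% and 7.5%, so there was no excess.

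Among the other LXR targets, Arl4c had a log2 fold change of 0.29 (adjusted p = 0.553, edgeR) and Pltp, phospholipid transfer protein, one of 1.53 (standard error 0.840, adjusted p = 0.542, edgeR) that came from a single library, with 6.83, 4.67 and 48.7 CPM across the OgaVav-Cre libraries and 8.34, 4.05 and 8.38 CPM across the wildtype ones. Among the other receptors and the Reelin pathway, Snx17, which sorts receptors of this family back to the surface, had a log2 fold change of 0.26 and Lrp10 one of 0.19 (adjusted p = 0.553 for both, edgeR). Lrp5, Lrp6 and Lrpap1, the chaperone of the receptor family, had log2 fold changes of 0.12, -0.06 and 0.05. Dab1, the adaptor through which VLDLR and LRP8 pass on the Reelin signal in neurons, had at most 3 reads in any library, at the floor, and was not tested, while Dab2 had 23 to 41 reads per library and a log2 fold change of -0.51 (adjusted p = 0.599, edgeR).

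Reads were assigned by locus, and the library kit does not mark strand, so reads in overlapping genes cannot be told apart. Of the 31 genes, 15 had another listed locus in their span and 16, Vldlr among them, had none. For 8 of the 15, reads over the whole of the other locus came to more than 10% of those of the gene. These were Stat6 over Lrp1, LOC100503284 over Scarb1, Rai1 over Srebf1, 5830462I19Rik over Scap and AK036292 over Insig2. The others were Ctsb over Fdft1, 1110014N23Rik over the whole of Tm7sf2, and the readthrough locus Nr1h3/Gm13783 over Nr1h3. Reads in the shared stretch alone were not counted, and Stat6 shared only 595 bases with Lrp1 and Ctsb 772 with Fdft1. The values of these 8 genes, Srebf1 and Insig2 included, are uncertain to an extent that was not measured.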

How the data were processed

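Poly(A) RNA-Seq of LSK cells from 3 OgaVav-Cre and 3 wildtype mice was analysed, with genotypes and replicate numbers taken from the sample labels. The authors sequenced 50 bp single-end reads, aligned them to mm9 and summarised them per locus with Genomatix. The submitters' processing notes name CASAVA 1.8.2, and the aligner and annotation are not given in the sources used here. The deposited counts are raw reads per locus, and the deposited RPKM values were made by the authors from reads, locus length and library size. The authors' own columns of fold changes and p-values, from their DESeq2 test, were not used, nor was a column of Genomatix normalised expression.

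Counts were filtered (filterByExpr), scaled by TMM and tested by the quasi-likelihood test of edgeR 4.0.16 in R 4.3.3, with Benjamini-Hochberg adjustment over all tested loci. Intervals are 95% and use the t distribution of that fit. Calls needed an adjusted p below 0.05 together with a log2 fold change beyond 1. The study itself used DESeq2, which was run here as an alternative (1.42.0), as were limma-voom and limma-trend (3.58.1) on log2(RPKM + 0.1) and log2(RPKM + 1), other scalings and filters, a replicate block, and each library left out. The scripts were tested on simulated data. CPM uses the TMM-scaled library size. Promoter sequences came from RefSeq (GRCm38.p6).

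The genes and lists were chosen with earlier results of these data known. All 31 genes of the list are described. Of each related list, the 2 loci with the smallest p are named, as are the loci that overlap a gene of the list or lie within 500 kb of Vldlr. Lrp5, Lrp6, Lrpap1, Dab1 and Dab2, and the genes in the closing section, were named after their values were seen. With 3 mice per genotype, p-values cover the spread between these mice only.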

Additional observations from a re-analysis of the deposited data

How the results depend on the processing

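Of 496 comparisons of the 31 genes under 16 alternative settings, 470 kept their direction and their side of the threshold, 24 changed direction and 2 became calls, both of them Vldlr. Vldlr stayed below 0 in each setting, from -1.61 to -1.19, and was called with no filter (-1.47) and by DESeq2 (-1.46), so that 1 gene of the list was called in each of these and none in the others. Loci called changed numbered 7 in the reported fit, 21 with no filter, 4 with at least 10 reads in every library, 115 by DESeq2 (80 lower, 35 higher), 4 with log2(RPKM + 1) and 3 to 9 with each library left out. Genes of the list at an unadjusted p below 0.05 numbered 2, and 1 with library totals (beside 11.8% of loci), 1 with either RPKM pseudocount (10.8% and 10.9%), 3 with RLE size factors (Vldlr lower, Abcg1 and Srebf1 higher, beside 10.6%), 2 by DESeq2 (Vldlr lower, Fdps higher, beside 6.72%) and 1 to 6 with each library left out. Vldlr was among them each time and Srebf1 was not with library totals, RPKM or DESeq2, nor without OgaVav-Cre replicate 1 or 2 or wildtype replicate 2 or 3. They were 6 without OgaVav-Cre replicate 3 (Vldlr, Nr1h3, Hsd17b7 and Lrp8 lower, Abcg1 and Srebf1 higher) and 6 without wildtype replicate 1 (Vldlr lower, Sqle, Ebp, Srebf1, Idi1 and Fdps higher), where 14.3% and 14.5% of all loci were below that p, 4 without wildtype replicate 2 (Vldlr and Nr1h3 lower, Insig1 and Sc4mol higher, beside 7.51%), 2 without wildtype replicate 3 (Vldlr lower, Apoe higher, beside 5.39%), and Vldlr alone without OgaVav-Cre replicate 1 or 2 (beside 6.51% and 7.67%). The sterol-controlled median ranged from 0.117 to 0.289 with each library left out.

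With the replicate block, 6 loci were changed, 4 genes of the list (Vldlr and Nr1h3 lower, Ebp and Srebf1 higher) were below an unadjusted p of 0.05, beside 12.4% of loci, and Vldlr was at -1.47 (adjusted p = 0.0783, edgeR). The deviations of same-numbered libraries correlated at -0.089, 0.33 and 0.41, and OgaVav-Cre replicate 1 correlated best with wildtype replicate 2, so the numbers were not taken to pair the mice.

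Without replicate 3 of both genotypes, an alternative added after the data were seen, 4 loci were changed, 4 genes of the list were below that p (Vldlr and Hsd17b7 lower, Abcg1 and Srebf1 higher) beside 8.51% of loci, the sterol-controlled median was 0.0271, and Lrp8 (-0.45), Mvd (-0.36), Cyp51 (-0.031) and Dhcr7 (-0.095) were below 0. With library totals alone Scarb1 (-0.048), Dhcr7 (-0.044) and Nr1h2 (-0.097) were below 0. On the RPKM scale Lrp8 was at -0.029 and -0.00056 and Nr1h2 at -0.037 and -0.036 with pseudocounts of 0.1 and 1. With each library left out, Lrp8 ranged from -0.44 to 0.42, Lrp1 from -0.58 to 0.18, Scarb1 from -0.089 to 0.19, Mvd from -0.33 to 0.44, Hsd17b7 from -0.73 to 0.036, Dhcr7 from -0.065 to 0.15, Nr1h2 from -0.020 to 0.11, Abca1 from -0.13 to 0.52 and Apoe from -0.13 to 0.99. The causes were not tested. Nr1h3 had 24 to 99 reads per library and every other gene of the list at least 68, the count of Mvd in wildtype replicate 2.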

Other observations

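Several genes of lipid handling outside the list varied more between mice than between genotypes. Scd1, the stearoyl-CoA desaturase, had 344, 813 and 8385 reads across the OgaVav-Cre libraries and 996, 155 and 4041 reads across the wildtype ones (log2 fold change 0.65, standard error 1.24). Its relative Scd2 had 8856, 11844 and 8149 reads against 6907, 7779 and 6629 reads (log2 fold change 0.20), with no library far from the others. Sorl1, a sorting receptor with low density lipoprotein receptor repeats, had 46.9, 43.7 and 196.5 CPM across the OgaVav-Cre libraries and 68.5, 45.7 and 133.7 CPM across the wildtype ones, and lipoprotein lipase, Lpl, had 6.30, 6.49 and 22.1 CPM against 12.0, 9.34 and 22.4 CPM. Scd1, Sorl1 and Lpl were thus highest in replicate 3 of each genotype, as the macrophage, erythroid and granulocyte marker sums were. The part of these cells in their levels was not tested.

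Reln, the Reelin ligand of VLDLR and LRP8, had 256 to 557 reads in 5 of the libraries. In OgaVav-Cre replicate 3 it had 11 reads (0.40 CPM), above the floor. That library had the highest Lrp8 (74.6 CPM) and the lowest Vldlr (24.8 CPM). It also had the lowest LSK and plasma cell and the highest erythroid and granulocyte marker sums of all libraries. A link between these values was not tested. The adjusted p of Reln was 0.728 (edgeR), and its log2 fold change was -0.95 with a standard error of 0.946.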
